A study of Mus musculus with 3 samples.

Results

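The genes of type 2 immunity were followed through the leukocytes of the mouse pancreas. The set held 7 of the 31053 genes counted, and all 7 were found by symbol: *Il4*, *Il5* and *Il13*, which encode the cytokines IL-4, IL-5 and IL-13; *Areg*, which encodes the growth factor amphiregulin; *Il1rl1*, which encodes ST2, the IL-33-binding chain of the IL-33 receptor; *Il17rb*, which encodes a chain of the IL-25 receptor; and *Gata3*, a transcription factor of type 2 lymphocytes. They were chosen by name and function, with earlier results of these data known. Live CD45+ cells had been sorted from the pancreas of wild-type C57BL/6J mice, young adults of both sexes. The mice received PBS, or whole β-glucan particles of yeast (WGP) once into the peritoneum 3 days (3-day WGP) or 7 days (7-day WGP) before the organ was taken. Each of the 3 groups was 1 droplet library and the number of mice in a library was not given in the sources used here, so no test was possible and no p-value is given. Intervals are exact 95% intervals of the counts, which cover counting error and not the spread between cells or between mice. Where 1 barcode held many UMIs of a gene, leaving it out could move a level beyond its interval. Barcodes with at least 1000 unique molecular identifiers (UMIs, counted mRNA molecules) and at most 30% mitochondrial UMIs were kept, which left 5249 with PBS, 4879 at 3 days and 4174 at 7 days, 14302 in all, with a median of 5755, 5754 and 8077 UMIs.

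In barrier tissues, epithelial and stromal cells release IL-33 and IL-25 when they are damaged, and group 2 innate lymphoid cells (ILC2) carry the receptors for both. ILC2 have no rearranged antigen receptor; they need GATA3 for their development and, when IL-33 reaches them, secrete IL-5, IL-13 and amphiregulin. IL-5 feeds eosinophils, IL-13 acts on epithelium, fibroblasts and macrophages, and amphiregulin signals through the epidermal growth factor receptor in tissue repair. T helper type 2 cells use the same cytokine genes, and regulatory T cells of tissues can carry ST2 and make amphiregulin. Mast cells and basophils are further sources of IL-4 and IL-13 and also carry ST2.

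Cells were grouped by clustering on other genes, since the 7 genes were withheld from the variable genes and from the marker lists. A single cluster of 589 barcodes was ILC2-like and is called ILC2 here. Of the 11 ILC2 markers, 8 were raised in it (*Rora*, *Pparg*, *Alox5*, *Klrg1*, *Icos*, *Hs3st1*, *Ptpn13* and *Il9r*), and *Rxrg*, *Nmur1* and *Ly6a* were not. ILC2 made up 286 of 5249 barcodes with PBS (5.45%, interval 4.85 to 6.1), 292 of 4879 at 3 days (5.98%, 5.34 to 6.69) and 11 of 4174 at 7 days (0.264%, 0.132 to 0.471). Levels in the 11 ILC2 of 7-day WGP rest on few molecules for this reason. T cells came to 552, 662 and 707 barcodes in PBS, 3-day WGP and 7-day WGP. The other named classes were γδ T cells, NK cells, B cells, plasma cells, monocytes and macrophages, conventional and plasmacytoid dendritic cells, neutrophils, erythroid cells and, in spite of the CD45 sort, a few acinar cells and fibroblasts. 858 barcodes stayed unnamed. Pairs of libraries shared 9, 1 and 5 kept barcodes.

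ILC2 held most of the message of 6 of the 7 genes in PBS, and T cells held most of the message of 5 of the 7 in 7-day WGP, when ILC2 were few. In PBS, the share of each gene's UMIs that lay in ILC2 ran from 48.5% for *Il4* through 51.6% for *Il17rb*, 58.0% for *Il1rl1*, 63.3% for *Gata3*, 74.8% for *Areg* and 85.4% for *Il5* to 93.5% for *Il13*. In 3-day WGP the share in ILC2 was 94.3% for *Il5* and 22.5% for *Il17rb*, the highest and the lowest of the 7. In 7-day WGP it was between 3.57% for *Il17rb* and 30.9% for *Il5*. T cells then held 69.1% of the *Il5* UMIs, 88.9% of those of *Il13*, 56.9% of those of *Areg*, 54.7% of those of *Il1rl1* and 51.9% of those of *Gata3*. For *Il5* and *Il13* this share rested on 1 T cell barcode, which held 37 of the 38 and 14 of the 16 T cell UMIs.

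**Figure D1:**
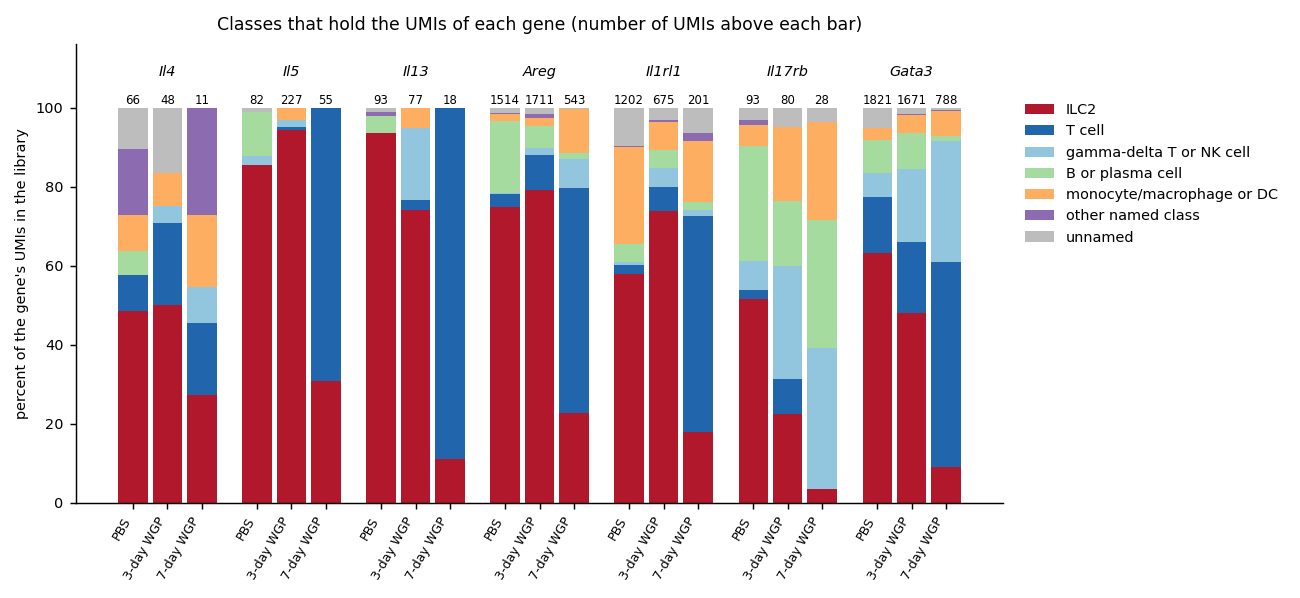
Percent of each gene's UMIs (vertical axis) that lay in each group of cell classes, with a bar per library and the number of UMIs above it. ILC2 (red) hold 48.5% to 93.5% of the UMIs of each gene in PBS and 3.57% to 30.9% in 7-day WGP, where T cells (dark blue) hold most of 5 of the 7. For *Il5* and *Il13* most of these T cell UMIs lie in 1 barcode.

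Over all kept barcodes together, *Il5* was the gene of the set that was higher after 3 days. It had 82 UMIs with PBS, 227 at 3 days and 55 at 7 days, or 1.77, 4.38 and 1.32 CPM (UMIs of the gene per 1000000 UMIs). The log2 ratio of 3-day WGP over PBS, or log2 ratio at 3 days, was 1.31 (0.93 to 1.69) for *Il5*. *Areg*, at 32.7 and 33.0 CPM, had a log2 ratio of 0.013 (-0.088 to 0.11), and *Il1rl1*, with 1202 and 675 UMIs, one of -1.0 (-1.13 to -0.86). Of all genes with at least 20 UMIs in both libraries together, 10.3% had a ratio of at least 2 or at most 0.5 between 3-day WGP and PBS, and 1 of the 7 genes, *Il5*, did. Between 7-day WGP and PBS 16.5% of genes passed that limit, and 6 of the 7 did, all lower in 7-day WGP. The log2 ratios of the 6 were -2.44 for *Il4*, -2.22 for *Il13*, -1.33 for *Areg*, -2.43 for *Il1rl1*, -1.58 for *Il17rb* and -1.06 for *Gata3*. These sums move with the makeup of each sort, and fewer ILC2 and less message per ILC2 are separated only by the levels within the class.

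Within ILC2, *Il5*, the eosinophil growth factor, was several times higher 3 days after WGP. It stood at 52.8 CPM with PBS (41.2 to 66.7, 70 UMIs), 227 at 3 days (197 to 259, 214 UMIs) and 181 at 7 days (106 to 290, 17 UMIs). The PBS interval did not meet either WGP interval, while the intervals of both WGP libraries overlapped. The log2 ratio at 3 days was 2.10 (1.71 to 2.51), a 4.29-fold difference. In ILC2 the limit of at least 2-fold or at most 0.5-fold was passed by 6.97% of the 7735 genes with at least 20 UMIs, and of the 7 genes of the set by *Il5* alone.

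More ILC2 had *Il5* in 3-day WGP than in PBS. *Il5* was seen in 28 of 286 ILC2 in PBS and in 64 of 292 in 3-day WGP, 9.79% (6.6 to 13.8) and 21.9% (17.3 to 27.1). With each cell thinned to 1000 UMIs, the shares were 3.5% (1.69 to 6.34) and 12.7% (9.08 to 17). The cells with *Il5* held a mean of 2.5 UMIs of it in PBS and 3.34 in 3-day WGP, and 5 ILC2 in PBS against 13 in 3-day WGP held 5 or more. A single UMI was held by 17 of the 28 and by 32 of the 64, and the most in 1 cell was 13 and 24. The means have no interval, so a difference in the amount per positive cell was not tested. The share in B cells, which should lack the gene, was 0 of 1964 in PBS and 0 of 839 in 3-day WGP. Without the barcode that held most *Il5* in each library the log2 ratio was 2.23 (1.8 to 2.69). At 7 days the 17 UMIs lay in 2 of the 11 ILC2, and without the one with 10 the log2 ratio to PBS went from 1.78 to 0.89 (-0.49 to 2.02).

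*Il13*, of the same gene cluster as *Il5*, showed no such difference in ILC2. It stood at 65.6 CPM with PBS (52.5 to 80.9), 60.4 at 3 days (45.8 to 78.3) and 21.3 at 7 days (2.58 to 77, 2 UMIs), and all 3 intervals overlapped. The log2 ratio at 3 days was -0.12 (-0.63 to 0.38). The message was spread differently: 87 UMIs lay in 9 ILC2 in PBS, where 3 cells held most of them, and 57 UMIs in 24 ILC2 in 3-day WGP. *Il13*-positive ILC2 held a mean of 9.67 UMIs in PBS and 2.38 in 3-day WGP. After thinning, 1.05% (0.217 to 3.03) and 3.42% (1.65 to 6.21) of ILC2 had *Il13*, intervals that overlapped. A PBS barcode with 16 of the 87 UMIs also had 11 of *Cd3d* and 7 of *Trac*, which ILC2 should lack.

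*Il4* was sparse in every library, with 32, 24 and 3 UMIs in ILC2. Its level was 24.1 CPM with PBS (16.5 to 34.1), 25.4 at 3 days (16.3 to 37.9) and 32.0 at 7 days (6.59 to 93.4), and the intervals overlapped. The log2 ratio at 3 days was 0.076 (-0.75 to 0.89). Of the 28 ILC2 with *Il4* in PBS, 25 held a single UMI.

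*Areg* was higher in ILC2 of 3-day WGP, but the cells with Y-linked transcripts did not show the difference. Its level was 854 CPM with PBS (805 to 906), 1435 at 3 days (1360 to 1514) and 1311 at 7 days (1089 to 1564), and the log2 ratio at 3 days was 0.75 (0.63 to 0.86). The share of thinned ILC2 with *Areg* was 28.0% (22.8 to 33.6) in PBS and 40.1% (34.4 to 45.9) in 3-day WGP. In 7-day WGP 63 of the 123 *Areg* UMIs lay in 1 barcode, and without it the log2 ratio to PBS went from 0.62 to -0.26 (-0.66 to 0.11).

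*Il1rl1* and *Gata3* were carried by most ILC2 and stood at like levels in PBS and 3-day WGP. *Il1rl1* was at 526 CPM in PBS and 529 in 3-day WGP, with a log2 ratio of 0.0092 (-0.16 to 0.18), and at 384 in 7-day WGP (36 UMIs). It was seen in 219 of 286, 216 of 292 and 10 of 11 ILC2. *Gata3* was at 869, 849 and 757 CPM, with a log2 ratio at 3 days of -0.034 (-0.17 to 0.1), and was seen in 250, 251 and 10 ILC2. In Y cells alone the ratios of both were higher. *Il17rb* was lower in 3-day WGP, at 36.2 CPM in PBS (48 UMIs) and 19.1 in 3-day WGP (18 UMIs), with a log2 ratio of -0.92 (-1.79 to -0.12). This was 0.529-fold, which did not pass the limit of 0.5. In Y cells alone, with 20 UMIs in PBS and 12 in 3-day WGP, the log2 ratio was -0.87 (-2.04 to 0.23), an interval that includes 0.

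**Figure D2:**
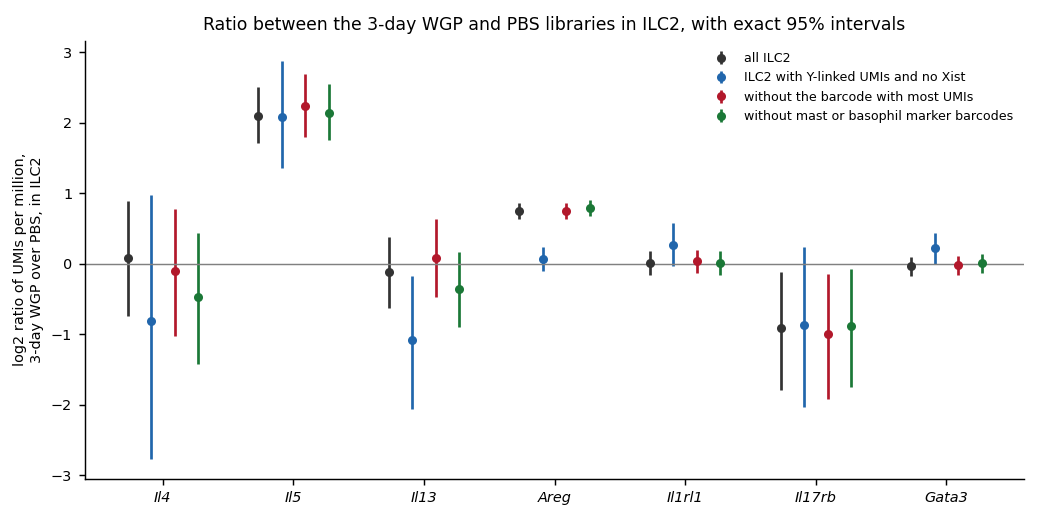
Log2 ratio of CPM in ILC2 between 3-day WGP and PBS (vertical axis) for the 7 genes, with exact 95% intervals, for all ILC2 and for 3 subsets. *Il5* lies between 2.08 and 2.23 in all 4, and *Areg* lies at 0.75 in all ILC2 and at 0.064 in ILC2 with Y-linked UMIs and no *Xist*.

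The PBS and WGP cells differed in how many carried transcripts of the Y chromosome. Among ILC2, 82 in PBS had UMIs of *Xist*, the RNA of the inactive X chromosome, and none of the 4 Y-linked genes counted (*Ddx3y*, *Eif2s3y*, *Kdm5d* and *Uty*), 100 had Y-linked UMIs and no *Xist*, and 104 had neither. In 3-day WGP the numbers were 4, 128 and 160, and in 7-day WGP 4, 3 and 4. In PBS *Areg* stood at 328 CPM in *Xist* cells (284 to 378, 193 UMIs in 18 of 82 cells) and at 1439 in Y cells (1324 to 1562, 572 UMIs in 46 of 100 cells). In 3-day WGP it was at 1505 in Y cells (1392 to 1624), so that Y cells alone gave a log2 ratio of 0.064 (-0.1 to 0.23). *Il5* in Y cells was at 47.8 in PBS (28.8 to 74.6) and 202 in 3-day WGP (162 to 249), a log2 ratio of 2.08 (1.35 to 2.88). *Il13* in Y cells had a log2 ratio of -1.09 (-2.06 to -0.17), *Gata3* one of 0.22 (-0.0068 to 0.44) and *Il1rl1* one of 0.27 (-0.031 to 0.57). In PBS *Il1rl1* was at 602 in *Xist* cells and 418 in Y cells, and *Gata3* at 963 and 755. Cells of either kind within a library may come from a single mouse, so a difference between them cannot be told apart from one between mice.

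**Figure D3:**
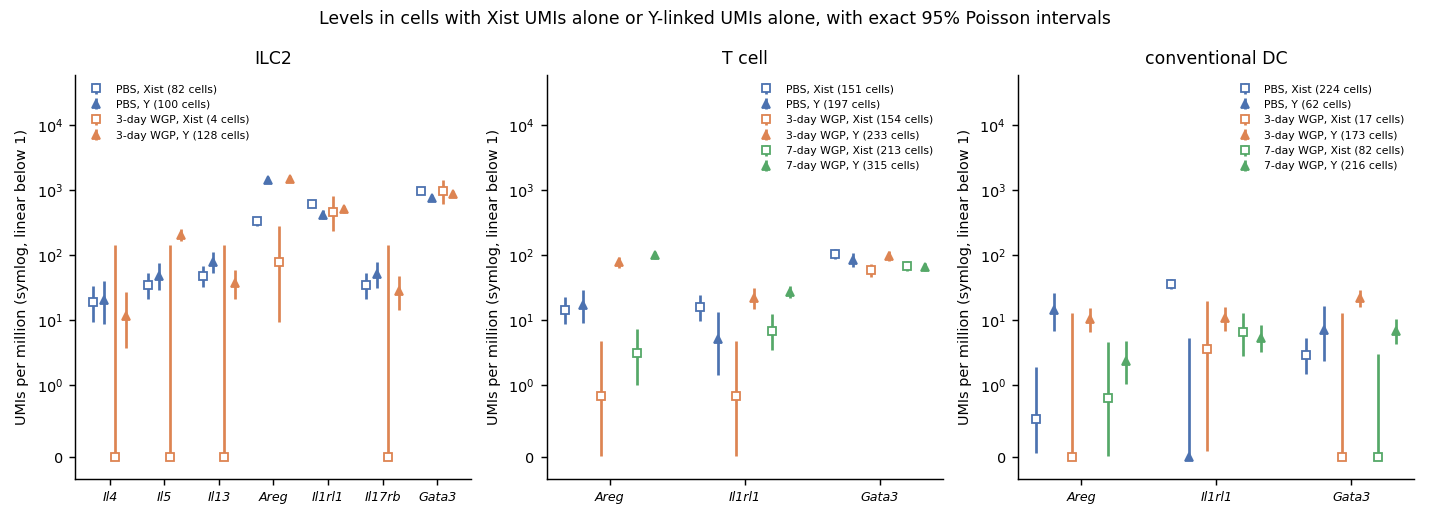
Levels in CPM (vertical axis, logarithmic above 1 and linear below) of cells with *Xist* UMIs alone (squares) or Y-linked UMIs alone (triangles), with exact 95% intervals; ILC2 of 7-day WGP are not drawn. In PBS ILC2 *Areg* lies at 328 in *Xist* cells and 1439 in Y cells, and in PBS conventional dendritic cells *Il1rl1* lies at 35.8 and 0.

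Most ILC2 with a UMI of the cytokine genes had 1 of the 3 in PBS and 3-day WGP, except that *Il13* in PBS was mostly seen together with another. At least 1 UMI of *Il4*, *Il5* or *Il13* was present in 54 of 286 ILC2 with PBS (18.9%, 14.5 to 23.9), in 93 of 292 at 3 days (31.8%, 26.5 to 37.5) and in 3 of 11 at 7 days. In PBS 22 had *Il5* alone, 21 *Il4* alone and 2 *Il13* alone, 3 had *Il4* with *Il13*, 2 had *Il5* with *Il13*, 2 had *Il5* with *Il4*, and 2 had all 3. In 3-day WGP 56 had *Il5* alone, 14 *Il13* alone and 12 *Il4* alone, and 7 had *Il5* with *Il13*, 3 *Il4* with *Il13* and 1 *Il5* with *Il4*. *Areg* was seen in 35.2% of the cytokine-positive and 37.5% of the cytokine-negative ILC2 in PBS, and in 67.7% and 48.2% in 3-day WGP. The median depth of cytokine-positive and negative ILC2 was 3677 and 3578.5 UMIs in PBS and 3130 and 2760 in 3-day WGP. Single UMIs are often missed at this depth, so a cell without a UMI of a gene is not a cell without its message.

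**Figure D4:**
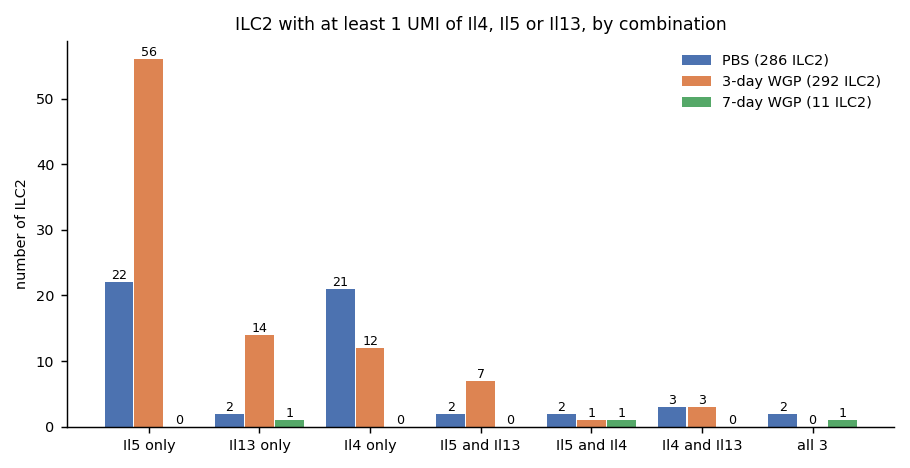
Number of ILC2 (vertical axis) with at least 1 UMI of *Il4*, *Il5* or *Il13*, by combination and library. Cells with *Il5* alone are the most frequent in both large sets, 22 of 286 ILC2 in PBS and 56 of 292 in 3-day WGP.

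*Il4*, *Il13* and *Il5* are neighbours on chromosome 11, with *Rad50* between *Il13* and *Il5*. In GRCm38 *Il4* spans chr11:53602982-53618669 and *Il13* chr11:53631324-53634702, both on the minus strand, *Rad50* spans chr11:53649519-53707319 on the minus strand, and *Il5* spans chr11:53720794-53725106 on the plus strand. The other 4 genes lie apart: *Il1rl1* at chr1:40429570-40465415 (plus), *Gata3* at chr2:9857078-9890034 (minus), *Areg* at chr5:91139599-91148432 (plus) and *Il17rb* at chr14:29996135-30008896 (minus). *Rad50*, a DNA repair gene, was at 145 CPM in ILC2 of PBS and 134 in 3-day WGP, and 4 of the 5 listed neighbours on that chromosome passed 20 UMIs, of which 0 had a ratio of at least 2 or at most 0.5. GATA3 binds DNA at sites with a GATA core, and the promoters were searched for AGATAA or AGATAG, and for TGATAA or TGATAG, on either strand, from 250 bases before to 50 after each transcript start (RefSeq, GRCm38.p6). The table held 9 promoters of the 7 genes, and 7 of the 9, from 5 of the 7 genes, had a site. Of all 32851 promoters of the same length, 29.8% had a site. *Areg* and *Il17rb* had none, and *Gata3* had one 37 bases after its start. The cytokine genes are shown because *Il5* and *Il13*, a short way apart, parted in 3-day WGP, and *Il1rl1* because its more distal start had 5 sites. Each stretch ends at the base before the transcript start and capitals mark the sites.
*Il5*, chr11:53720664-53720793, plus strand, site 72 bases upstream: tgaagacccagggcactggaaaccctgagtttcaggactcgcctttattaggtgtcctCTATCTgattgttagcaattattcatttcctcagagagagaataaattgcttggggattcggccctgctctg
*Il13*, chr11:53634703-53634832, minus strand, site 81 bases upstream: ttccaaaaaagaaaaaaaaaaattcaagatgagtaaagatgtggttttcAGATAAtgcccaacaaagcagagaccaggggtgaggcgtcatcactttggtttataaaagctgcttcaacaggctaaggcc
*Il4*, chr11:53618666-53618795, minus strand, no site in this stretch: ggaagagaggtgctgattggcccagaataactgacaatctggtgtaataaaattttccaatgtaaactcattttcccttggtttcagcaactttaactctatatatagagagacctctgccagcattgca
*Il1rl1* distal start, chr1:40429350-40429569, plus strand, sites 217, 141, 110, 80 and 54 bases upstream: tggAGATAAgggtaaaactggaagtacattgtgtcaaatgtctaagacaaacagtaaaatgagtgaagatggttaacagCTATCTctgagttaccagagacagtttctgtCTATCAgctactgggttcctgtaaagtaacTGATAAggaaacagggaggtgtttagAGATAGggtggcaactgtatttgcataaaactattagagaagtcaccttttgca
*Il1rl1* proximal start, chr1:40439499-40439628, plus strand, site 103 bases upstream: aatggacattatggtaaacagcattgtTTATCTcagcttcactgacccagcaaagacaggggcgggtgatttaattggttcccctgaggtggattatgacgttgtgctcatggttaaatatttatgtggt
*Il5* and *Il13* each held 1 site at a like distance from the start, although their levels in ILC2 differed between the libraries in different ways. The *Il4* start shown had its site 15 bases after the start, outside the stretch, and a second *Il4* start inside the gene had one 80 bases upstream. The match is of letters, and no binding was measured. The 3′ reads do not say which start of *Il1rl1* was used.

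Outside ILC2 the 7 genes were lower in PBS and 3-day WGP, by different amounts. *Il4* stood next in neutrophils in PBS, at 18.6 CPM (9.28 to 33.3), an interval that overlapped that of ILC2, and all 11 of those UMIs lay in 1 barcode with mast cell markers. For *Il5* and *Il13* no other class came near ILC2 in PBS or 3-day WGP. In PBS T cells had 0 UMIs of both, so only the lower end of the exact interval is given. *Il5* in ILC2 was at least 38.9-fold higher than in T cells in PBS and 434-fold (119 to 3591) in 3-day WGP. *Il13* in ILC2 was at least 48.5-fold higher than in T cells in PBS and 115-fold (30.5 to 976) in 3-day WGP. *Areg* was 49.5-fold (37 to 67.6) and *Il1rl1* 56.1-fold (38.1 to 86.8) higher in ILC2 than in T cells in PBS. *Gata3* was 9.38-fold (8.22 to 10.9) higher in ILC2 than in T cells in PBS and 10.9-fold (9.45 to 12.4) in 3-day WGP. *Gata3* stood next in γδ T, T and NK cells, at 110, 92.4 and 71.2 CPM in PBS, whose intervals overlapped between neighbours in that order. *Il17rb* in ILC2 stood at 36.2 CPM in PBS and 19.1 in 3-day WGP. In γδ T cells it was at 11.1 (4.47 to 22.9) and 12.6 (8 to 18.9), with 27.6 (13.3 to 50.8) in 7-day WGP. The ILC2 level of *Il17rb* was 3.25-fold that of γδ T cells in PBS (1.46 to 8.51) and 1.52-fold in 3-day WGP (0.768 to 2.93).

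**Figure D5:**
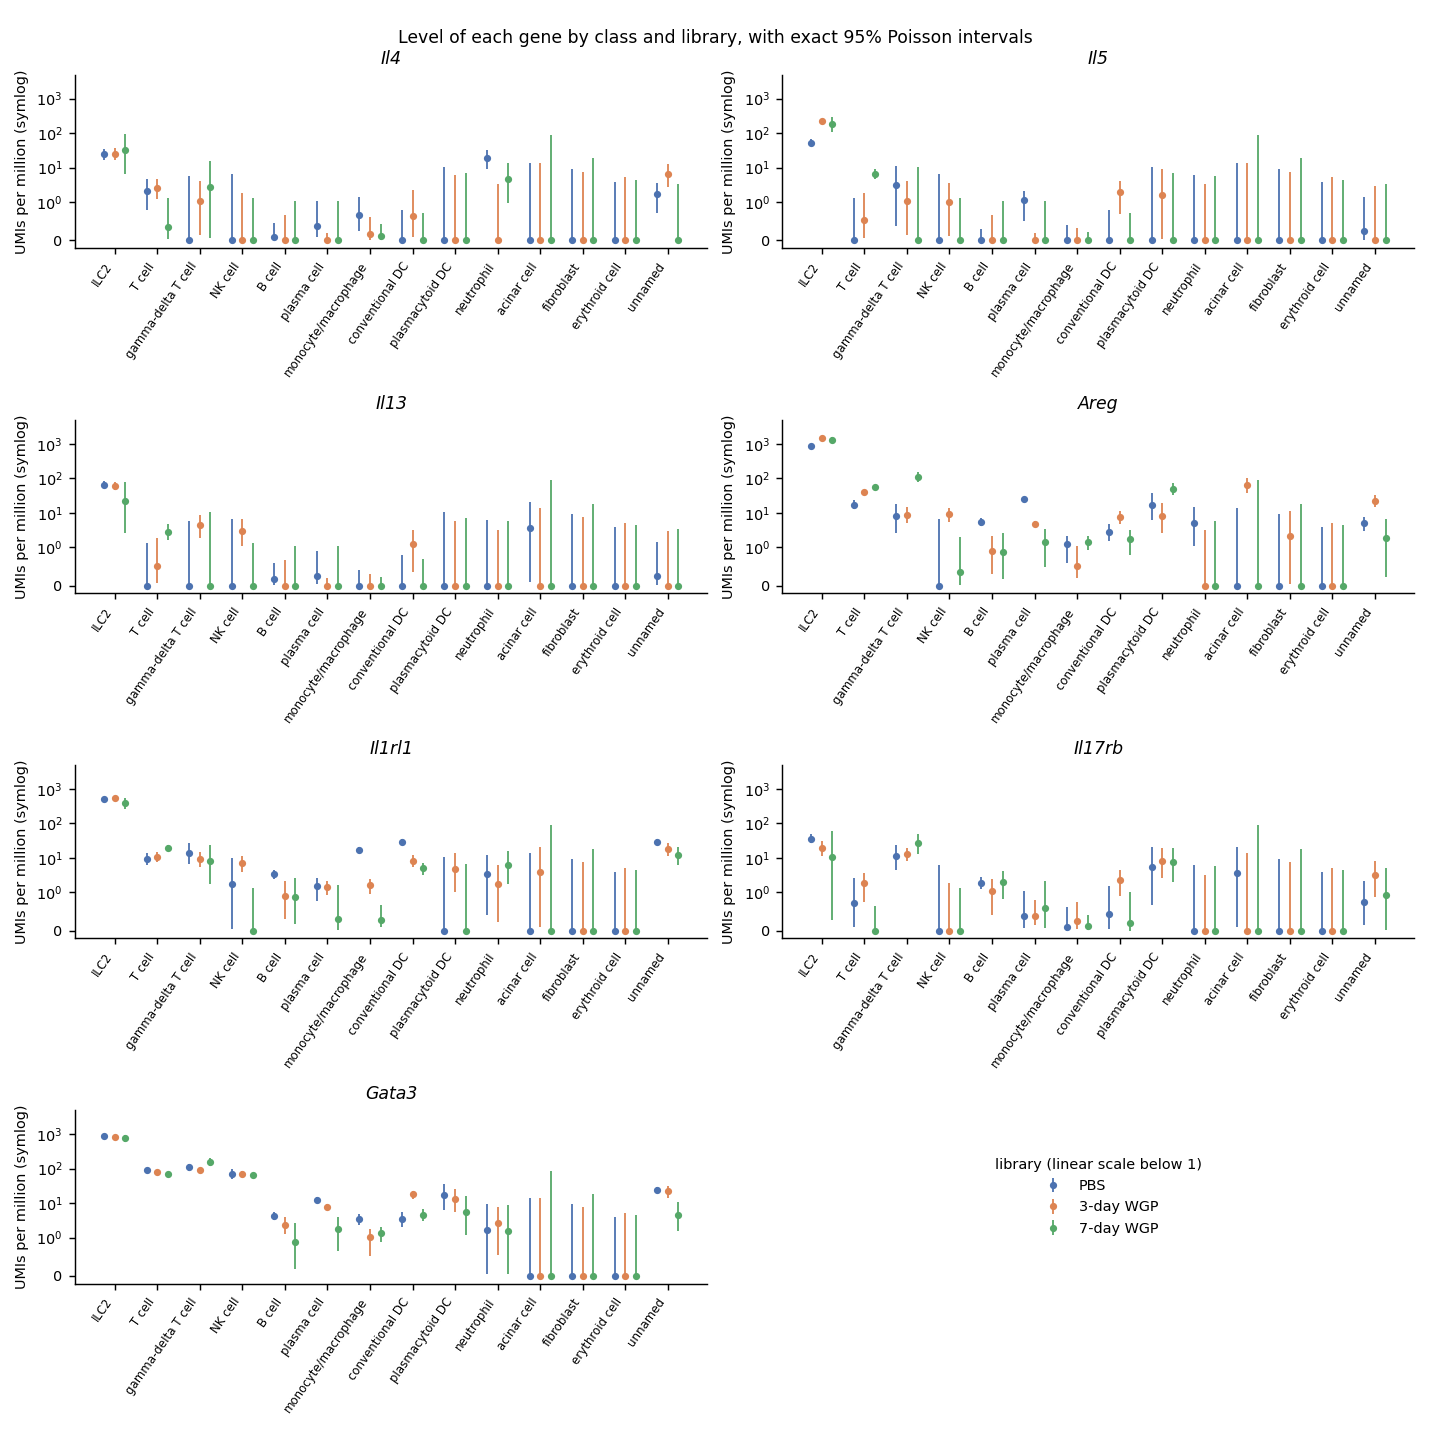
Level of each gene in CPM (vertical axis, logarithmic above 1 and linear below) by class and library, with exact 95% Poisson intervals. ILC2 are highest for *Il5*, *Il13*, *Areg*, *Il1rl1* and *Gata3* in every library, and *Il17rb* in 7-day WGP lies at 27.6 in γδ T cells and 10.7 in ILC2.

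In T cells *Areg*, *Il1rl1* and, through 1 cell, *Il5* were higher in 7-day WGP. *Areg* had 48, 150 and 309 UMIs in T cells of PBS, 3-day WGP and 7-day WGP, or 17.3 (12.7 to 22.9), 39.2 (33.2 to 46.1) and 54.3 (48.4 to 60.7) CPM, and no interval met another. Without the barcode with most *Areg* in each library, the levels were 11.9, 22.6 and 43.8 CPM. Free RNA of these libraries had *Areg* at 17.6, 23.3 and 22 CPM, so that the T cells of PBS were at its level, and its part was not tested. *Il1rl1* was at 9.35 (6.11 to 13.7), 10.7 (7.7 to 14.6) and 19.3 (15.9 to 23.3), so that 7-day WGP stood apart from PBS and 3-day WGP. Free RNA had *Il1rl1* at 29.3, 6.6 and 11.6 CPM, and its part was not tested. When cells were clustered on log-normalized counts, 59 of the 110 *Il1rl1* UMIs of 7-day WGP T cells moved to unnamed clusters. Those that stayed in T cells were 17 of 26 in PBS, 35 of 41 at 3 days and 49 of 110 at 7 days. The limit of 2-fold or 0.5-fold was passed by 3.3% of genes in T cells between 3-day WGP and PBS, and by 1 of the 3 genes of the set with at least 20 UMIs, *Areg*. It was passed by 6.18% between 7-day WGP and PBS, and by 3 of 4, *Il5*, *Areg* and *Il1rl1*. *Gata3* in T cells was at 92.4, 78.5 and 71.9. Of the 38 *Il5* and 16 *Il13* UMIs in T cells of 7-day WGP, 37 and 14 lay in 1 barcode. It had 16798 UMIs, of which 7 were *Gata3*, 6 *Cd4*, 17 *Trac* and 9 *Cd3d*, with no *Foxp3* and no *Il4*.

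In both WGP libraries, but not in PBS, most of the T cell *Areg* lay in the few T cells with *Foxp3*, the transcription factor of regulatory T cells. These were 12 cells with PBS, 21 at 3 days and 60 at 7 days, and they held 5, 124 and 289 *Areg* UMIs, of which the cell with most held 3, 64 and 61. The other T cells with *Cd4* held 37, 7 and 4. In CPM the *Foxp3* cells were at 81.7 (26.5 to 191), 653 (543 to 778) and 351 (312 to 394) for *Areg*, and at 147 (67.3 to 279), 147 (97.9 to 213) and 71.7 (54.6 to 92.5) for *Il1rl1*. Without the cell with most *Areg* in each library, *Areg* was at 35.1, 340 and 284. The *Foxp3* cells had no UMI of *Il4*, *Il5* or *Il13* in any library. A 0 allows up to 49.0 CPM in the 12 cells of PBS, 15.8 in the 21 of 3-day WGP and 3.65 in the 60 of 7-day WGP. *Gata3* in the *Foxp3* cells was at 768, 189 and 126, but 30 of the 47 UMIs in PBS lay in 1 cell. A gate on single UMIs of *Foxp3* misses cells.

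The T cell difference in *Areg* lay in cells with Y-linked transcripts. *Xist* T cells had 19 *Areg* UMIs with PBS (151 cells), 1 at 3 days (154 cells) and 5 at 7 days (213 cells), and Y T cells had 13, 113 and 297 (197, 233 and 315 cells). Of the *Foxp3* cells 1, 13 and 42 had Y-linked UMIs alone and 6, 5 and 6 *Xist* alone. The difference also depended on the clustering. With log-normalized counts, 187 of the 309 *Areg* UMIs of 7-day WGP T cells moved to unnamed clusters. Those that stayed in T cells were 36 of 48 in PBS, 103 of 150 at 3 days and 118 of 309 at 7 days. The T cell log2 ratios to PBS became -0.28 at 3 days and -0.50 at 7 days, against 1.19 and 1.66. These ratios also include UMIs of barcodes that entered the class from other clusters, which are not given here.

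*Il1rl1* outside the lymphocytes lay mostly in the PBS library. Monocytes and macrophages had 159 UMIs with PBS, 19 at 3 days and 5 at 7 days, or 17.3 (14.8 to 20.3), 1.6 (0.966 to 2.5) and 0.287 (0.0932 to 0.67) CPM. Of the 159, 151 lay in cluster 7, led by *Pf4*, *Mrc1* and *Folr2*, genes of tissue-resident macrophages, which had 640, 103 and 38 barcodes in the 3 libraries. Within cluster 7 the level was 21.5, 15.3 and 11.2 CPM, with log2 ratios to PBS of -0.49 (-1.4 to 0.3) and -0.93 (-2.83 to 0.45), intervals that include 0. The difference in the class thus went with fewer barcodes of cluster 7, and one within the cluster was not detectable at this depth. Conventional dendritic cells had 136, 26 and 26 UMIs of *Il1rl1*, or 29.4, 8.25 and 4.96 CPM, and 132 of the 136 in PBS lay in cluster 12, led by *Cd209a*, where the level was 51.5, 10.2 and 7.1 CPM. An unnamed cluster was led by *Retnla*, a target of IL-4 and IL-13 signalling in macrophages, and by *Ear2*. It had 88 *Il1rl1* UMIs in its 81 PBS barcodes, or 68.0 CPM (54.6 to 83.8). Free RNA of the PBS library, read from barcodes of at most 100 UMIs, had *Il1rl1* at 29.3 CPM, as high as the dendritic cells, against 6.6 in 3-day WGP. *Il1rl1* was in 63 of 303 dendritic cells of PBS (20.8%, median 14324 UMIs) and in 16 of 1964 B cells (0.815%, median 3858 UMIs), and at 0 in all 26 fibroblasts and 123 erythroid cells of PBS. The part of free RNA in these values was not tested. All 136 UMIs of the dendritic cells lay in the 224 *Xist* cells and 0 in the 62 Y cells, which allows up to 4.26 CPM. Y dendritic cells did not show the lower WGP levels of the class, with 24 UMIs (10.7 CPM) at 3 days and 18 UMIs (5.33 CPM) at 7 days. The exact lower bound of their log2 ratio to PBS was 0.91 at 3 days and -0.13 at 7 days. Y cells of cluster 12 were at 0, 14.5 and 7.07 CPM. The 0 allows up to 0.215 of the 57.4 CPM in *Xist* cells of that cluster in PBS. Macrophages with *Xist* alone (794, 83 and 574 cells in the 3 libraries) had *Il1rl1* at 17.6, 4.93 and 0.439 CPM. Their log2 ratios to PBS were -1.84 (-3.31 to -0.68) at 3 days and -5.33 (-7.62 to -3.75) at 7 days, so the lower level was also seen within *Xist* cells. Macrophages with Y-linked UMIs alone were 10 in PBS, too few to compare.

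A few barcodes with transcripts of mast cells or basophils carried much of the *Il4*. UMIs of at least 3 of 10 mast cell and basophil markers were found in 6 barcodes of PBS, 16 of 3-day WGP and 3 of 7-day WGP. They held 13 of 66, 14 of 48 and 5 of 11 *Il4* UMIs, at 394 (210 to 673), 232 (127 to 389) and 231 (74.9 to 538) CPM, against 1.15, 0.657 and 0.144 in all other barcodes. They also held 6, 24 and 3 UMIs of *Il1rl1* and 2, 10 and 0 of *Il13*, but none of *Il5* and 1 of *Gata3*. A single one in the neutrophil cluster of PBS held 11 *Il4* UMIs. 4 lay in the ILC2 cluster of 3-day WGP, with 8 *Il4* and 10 *Il13* UMIs, and without them the ILC2 log2 ratios at 3 days were -0.47 (-1.43 to 0.44) for *Il4* and -0.36 (-0.9 to 0.17) for *Il13*, which then stood at 51.2 CPM in 3-day WGP. No cluster was named for these cells.

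*Areg* outside ILC2 and T cells was in few cells. In PBS plasma cells 208 UMIs lay in 8 of 256 cells, 127 of them in 1 cell. In 7-day WGP γδ T cells 39 UMIs lay in 4 of 63 cells, and in plasmacytoid dendritic cells 27 lay in 3 of 53.

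The other genes of the pathway were read from lists. Beside the counts below, 2.0% of all genes tested in ILC2 were at least 2-fold higher in 3-day WGP and 4.96% at most 0.5-fold. The ratios of the lists are over all ILC2, of which 82 in PBS and 4 in 3-day WGP had *Xist* alone. Ratios in Y cells alone are not given for them. Of the alarmins, *Il33* had 131, 211 and 153 UMIs in the 3 libraries and was highest in fibroblasts, at 261 CPM, and *Il25* had 0 in all 3. Of 9 co-receptors and cytokine receptors of ILC2, 9 passed 20 UMIs and 0 had a 3-day ratio of at least 2 or at most 0.5. *Il7r*, the IL-7 receptor, was the highest, at 968 CPM in PBS and 1057 in 3-day WGP. Of 10 other cytokines 5 passed 20 UMIs and 1 was higher, *Calca*, which encodes calcitonin gene-related peptide, at 166 and 360 (log2 ratio 1.12, 0.87 to 1.37). *Csf2*, which encodes GM-CSF, was at 382 and 498. *Il9* and *Il3* had 0 UMIs. Of 15 transcription factors 13 passed and 1 was lower, *Tcf7*, at 42.2 and 15.9 (log2 ratio -1.41, -2.34 to -0.57).

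Of 11 neural and lipid receptors and enzymes 9 passed 20 UMIs, and 2 were higher and 2 lower in ILC2 of 3-day WGP. *Ramp3*, a partner chain of the receptors for calcitonin gene-related peptide and adrenomedullin, was at 38.5 and 192 CPM (log2 ratio 2.32, 1.86 to 2.8), and *Calcrl*, the chain it joins, at 24.9 and 10.6 (-1.23, -2.42 to -0.18). *Alox5*, which encodes a lipoxygenase of leukotriene synthesis, was the other higher one, at 104 and 210. Of the 12 genes of IL-33 receptor signalling and its restraint 12 passed and 0 reached the limit, with *Tnfaip3*, a brake on NF-κB, at 714 and 1284 and *Nfkb1* at 387 and 557. A list of 6 heat shock and immediate early genes, added after the data were seen, had 1 higher and 2 lower: *Hspa1a* was at 817 in PBS and 106 in 3-day WGP, *Hspa1b* at 1056 and 252, and *Egr1* at 127 and 365. Such genes can respond to the handling of tissue, and their part in the results was not tested.

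Of 12 genes listed as responding to IL-4 and IL-13 in myeloid and stromal cells, 7 were at most 0.5-fold of PBS over all barcodes at 3 days and 8 at 7 days, and 0 were at least 2-fold higher at either time. Of all genes tested over all barcodes, 6.47% were as low at 3 days and 10.0% at 7 days. The barcodes of the macrophage cluster 7, led by *Pf4* and *Mrc1*, went from 640 in PBS to 103 and 38, and those of the unnamed cluster led by *Retnla* and *Ear2* from 81 to 10 and 4, and these sums move with them. The examples were chosen after their values were seen. *Retnla* had log2 ratios to PBS of -3.0 at 3 days and -4.47 at 7 days, *Mgl2* of -3.13 and -3.20, *Mrc1* of -1.76 and -2.77 and *Ear2* of -2.65 and -2.24. *Chil3*, of the same list, had -0.13 and 0.37. None of the 12 genes of this list passed 20 UMIs in ILC2.

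Across 32 sums of class and library with at least 50 cells, the gene whose log2 level was most like that of *Il5* was *Calca* (Pearson r 0.971), and the same gene was nearest to *Il13* (0.975). *Il13* was nearest to *Il1rl1* (0.937), *Ccdc184* to *Areg* (0.893), *Klf5* to *Il4* (0.95), *Pcsk1* to *Il17rb* (0.889) and *Abcb9* to *Gata3* (0.972). The next nearest were *Tmem158* and *Ccdc184* for *Il5*, *Ccdc184* and *Il5* for *Il13*, *Lif* and *Bambi* for *Areg*, *Ccdc184* and *Calca* for *Il1rl1*, *Ptgir* and *Enah* for *Il4*, and *Stc2* and *Xlr4a* for *Il17rb*. Sums of 1 library share its depth, and the correlations are given as a description. The 11 ILC2 of 7-day WGP were too few for a sum. Genes found mainly in ILC2 are thus alike chiefly through the ILC2 sums of PBS and 3-day WGP.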

How the data were processed

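The study sequenced single-cell libraries of 3 groups, 1 library each, and the sample labels gave the groups. The authors deposited raw UMI counts per gene and barcode, made with Cell Ranger 3.1.0 on mm10 (GRCm38). 88.1%, 91.1% and 86.6% of the UMIs of PBS, 3-day WGP and 7-day WGP lay in kept barcodes, 46240979, 51793608 and 41749724 UMIs. 0 columns of values were left unused.

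Kept barcodes of all libraries were clustered with Seurat 5.3.0 and sctransform 0.4.2 in R 4.3.3, on 3000 variable genes without the 7 genes, with cell cycle, mitochondrial and ribosomal shares regressed, 30 principal components and Louvain resolution 0.8. A cluster took a class name at a mean log2 fold of its markers of at least 1, with 3 raised markers, a margin of 0.5 over the next class and at least 25% of barcodes with 2 of the markers. The last condition was chosen after the data were seen and left unnamed a cluster led by genes of islet hormones and mast cells (*Sst*, *Cma1*, *Pyy*, *Mcpt4*). Scrublet in scanpy 1.11.5 marked 0, 1 and 1 doublets, so it had not worked. Every barcode was therefore kept, and removing the highest scores was an alternative.

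UMIs were summed per class and library and divided by the class total (CPM). Intervals were exact Poisson, binomial and conditional intervals from scipy 1.17.1, and the ratio code was tested on simulated data. A count of 0 was bounded at 3 counts. Shares of cells were thinned to 1000 UMIs. edgeR 4.0.16 gave the TMM factors of an alternative. Named genes were the 7, and from each pathway list the 3 highest in ILC2 and those with a 3-day ratio of at least 2 or at most 0.5, of which some are given. A few genes that these rules name are not reported here. The nearest 3 genes were taken by Pearson r of log2(CPM + 10) among 11199 genes. The genes and lists were chosen with earlier results of these data known.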

Additional observations from a re-analysis of the deposited data

Results flagged for a closer look

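The libraries differed in opposite directions between classes for 3 genes. None of these differences between classes was tested, since each group was 1 library. For *Areg*, the log2 ratio at 3 days was 0.75 in ILC2, 1.19 in T cells and 1.38 in conventional dendritic cells, but -2.56 in B cells and -2.42 in plasma cells, where 127 of the 208 PBS UMIs lay in 1 cell. At 7 days it was 0.62 in ILC2, 1.66 in T cells and 3.76 in γδ T cells, but -2.60 in B cells and -4.14 in plasma cells. Without the barcode with most *Areg* in each library, the 7-day values were -0.26 in ILC2, 1.88 in T cells and 3.04 in γδ T cells. In B cells it was then at most -1.93 and in plasma cells -4.08. With log-normalized clustering the T cell values were -0.28 at 3 days and -0.50 at 7 days. For *Gata3* at 3 days it was 2.36 in conventional dendritic cells, -1.74 in monocytes and macrophages and -0.66 in plasma cells. For *Il1rl1* at 7 days it was 1.05 in T cells, -5.92 in monocytes and macrophages, -2.57 in conventional dendritic cells and -1.93 in B cells.

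Within T cells, cells with *Xist* and cells with Y-linked transcripts also went opposite ways, and this difference was not tested. For *Areg* the log2 ratio to PBS was -4.07 in *Xist* cells and 2.20 in Y cells at 3 days, and -2.21 and 2.55 at 7 days. For *Il1rl1* it was -4.22 and 2.08 at 3 days and -1.21 and 2.39 at 7 days. The *Xist* cells of 3-day WGP had 1 UMI of each gene.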

How the results depend on the processing

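The log2 ratio of *Il5* in ILC2 of 3-day WGP to PBS lay between 1.82 and 2.25 under the alternatives that gave it. Of the ILC2 results, the mean over cells moved that of *Areg* from 0.75 to 0.54. An upper limit at the knee of 10478 UMIs put the ILC2 share at 7.31% in PBS and 8.84% in 3-day WGP. Among *Xist* cells alone the ILC2 share was 4.02% in PBS and 0.835% in 3-day WGP. Among Y cells alone the share in 3-day WGP was 5.1% and the 3-day log2 ratios in ILC2 were -0.81 for *Il4*, -1.09 for *Il13*, 0.064 for *Areg*, 0.27 for *Il1rl1* and 0.22 for *Gata3*. Ratios changed sign for *Areg* in ILC2 at 7 days without the barcode with most (-0.26), for *Areg* in T cells with log-normalized clustering (-0.28 and -0.50) and at 3 days under the knee limit (-0.59), and for *Gata3* over all barcodes at 3 days under the knee limit (0.12). Among *Xist* cells they changed sign for *Areg* in T cells (-4.07 and -2.21), for *Il1rl1* in T cells at 7 days (-1.21) and for *Il13* over all barcodes at 7 days (0.088). The cause was not tested. TMM scaling, 2000 UMIs as the minimum and a mitochondrial limit of 10% moved none of the results computed under them. Leaving out barcodes with mast cell or basophil markers, those in ILC2 with T cell markers, or the barcode with most UMIs was chosen after the data were seen. GATA cores alone were in 57.9% of promoters. Ratios with under 10 cells in a group were not used. No paired analysis was possible because each group was 1 library. Depth limits *Il4*, *Il17rb* and every ILC2 level of 7-day WGP.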

Other observations

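Free RNA, read from barcodes of at most 100 UMIs, held several of the 7 genes at or above their level over all kept barcodes. *Il1rl1* was at 29.3, 6.6 and 11.6 CPM in the PBS, 3-day and 7-day libraries, against 26.0 in kept barcodes of PBS and 4.81 in those of 7-day WGP. *Il4* was at 2.73 in PBS, against 1.43 in kept barcodes. *Areg* was at 17.6, 23.3 and 22 CPM and *Gata3* at 22.3, 21.8 and 23.5. *Il5* was at 1.74 (0.698 to 3.58), 4.31 (2.51 to 6.91) and 0, and *Il13* at 1.74, 2.54 and 0.215, against 1.49 in kept barcodes of 3-day WGP. In 7-day WGP *Areg* and *Gata3* were higher in free RNA than over kept barcodes, where *Gata3* was at 18.9.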
